A study of Homo sapiens with 36 samples.

Results

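The change that atirmociclib made to the transcriptome of LNCaP cells after 72 h was described from 6 libraries of a series of 36: 3 from cells treated with atirmociclib at 1 µM and 3 from cells treated with vehicle, chosen by their labels for agent, dose and time. LNCaP is an established human prostate cancer cell line that depends on androgens for growth, and atirmociclib is classed as a CDK4-selective inhibitor. Kinase assays of the study found that it also inhibited CDK1, CDK2, CDK6, CDK7 and CDK9. All libraries of the series came from this 1 line, so the values describe no other prostate cancer model. Fewer cells were plated per well for 72 h than for 24 h of treatment, the agents were added 24 h after plating, and each condition had 3 biological replicates. Vehicle libraries also carry a dose label of 2 µM, and the replicate number is labelled a batch. Comparison groups of 3 libraries each, all LNCaP, were vehicle and atirmociclib at 1 µM harvested at 24 h. The others were AU2-94 at 1 µM and atirmociclib at 2 µM, harvested at 72 h. AU2-94 is another CDK4 inhibitor, more selective for CDK4 than atirmociclib in those assays.

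CDK4, together with a D-type cyclin, phosphorylates the retinoblastoma protein and its relatives. Those proteins otherwise hold E2F factors in check, and E2F factors drive the genes of DNA synthesis, while later cell cycle genes are held down by the DREAM complex through promoter elements that include the cell cycle genes homology region. Inhibition of CDK4 is therefore known to arrest cells in G1. In prostate luminal cells androgens drive genes such as KLK3, which encodes prostate-specific antigen.

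The deposited values are normalised counts, that is, read counts per gene normalised by the authors in a way not given in the sources used here. They summed to between 22024631 and 22176824 per library with atirmociclib and between 21436280 and 21617499 with vehicle, and to between 20675156 and 22692555 over all 36 libraries. The 10 genes with the highest values took 13.91% to 14.09% of the total with atirmociclib and 11.2% to 12.07% with vehicle. Luminal markers were present in every library, and their summed normalised count was 168451 to 174224 with atirmociclib and 99469 to 101897 with vehicle, with all 10 markers above 3 normalised counts. Markers of other cells were not all near 0. KRT5, CD3E, CDH5 and KDR were listed at 0 in all 6 libraries and PTPRC did not pass 1.94, but COL1A1 ran from 485 to 644, VWF from 184 to 713, CD68 from 42.8 to 139 and KRT14 from 4.73 to 88.6 over the 6 libraries. Correlations between libraries on the log2 scale were 0.9835 to 0.9866 within the groups and 0.966 to 0.9699 between them.

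Of 16341 genes tested with limma, 664 (4.06%) were called higher with atirmociclib and 437 (2.67%) lower, where a call needs an adjusted p of at most 0.05 and a change of at least 2-fold. By the adjusted p alone, 3265 genes (20%) were higher and 3240 (19.8%) lower. The median log2 fold change over all genes tested was 0.01. All fold changes are on the scale of log2(normalised count + 1), which understates the change of genes with low values, and a gene said to rise or fall by a value did so by that log2 fold change. A change past 4-fold was seen for 125 of the genes called higher and 52 of those called lower. The 3 atirmociclib libraries did not overlap the 3 vehicle libraries for 1062 of the 1101 called genes, beside 50.1% of all genes tested. Among genes with a mean of at least 50 normalised counts over the 6 libraries, 299 were called higher and 318 lower. Protein-coding genes made up 70.63% of the genes called higher, 84.44% of those called lower and 79.74% of those tested, and long non-coding genes 28.92%, 15.56% and 20.16%. In bulk libraries such as these, a smaller share of cells in a state and less RNA per cell cannot be told apart.

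**Figure D1:**
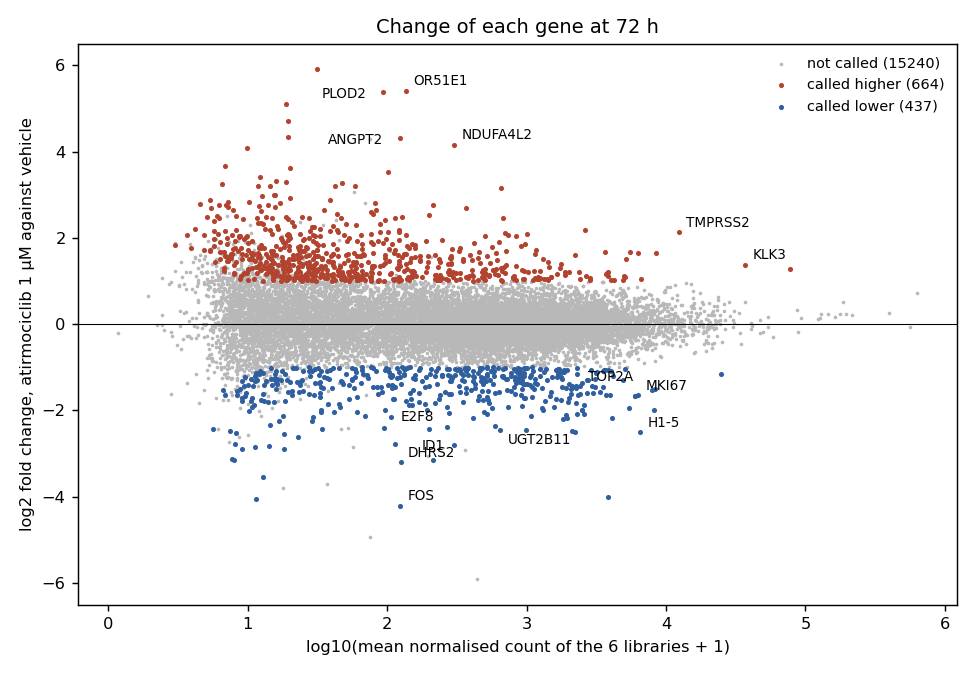
Each point is 1 of 16341 genes, with the log10 of its mean normalised count over the 6 libraries on the horizontal axis and its log2 fold change with atirmociclib 1 µM against vehicle at 72 h on the vertical axis. The 664 genes called higher lie from low to high levels, TMPRSS2 and KLK3 among the most abundant, and the 437 called lower include FOS at -4.22.

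The promoters below are shown for 4 genes. GINS2 and SPC25 are a DNA replication and a mitosis gene that fell and whose promoters held a motif. OR51E1 and FOS rose and fell most among genes with a mean of at least 50. Each is the 250 bases before the RefSeq transcription start, 5′ to 3′ on the gene's strand, from GRCh38.p14. Capitals mark TTTNNCGC, an E2F-type motif, or TTTGAA, the core of the cell cycle genes homology region, both searched on both strands.

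GINS2 (chr16:85688955-85689204, minus strand): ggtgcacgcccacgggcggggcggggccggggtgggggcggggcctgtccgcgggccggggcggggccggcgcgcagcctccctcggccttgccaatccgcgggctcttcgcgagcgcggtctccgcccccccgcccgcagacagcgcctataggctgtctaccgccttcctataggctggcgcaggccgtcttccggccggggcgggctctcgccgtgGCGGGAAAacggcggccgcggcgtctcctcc
SPC25 (chr2:168890431-168890680, minus strand): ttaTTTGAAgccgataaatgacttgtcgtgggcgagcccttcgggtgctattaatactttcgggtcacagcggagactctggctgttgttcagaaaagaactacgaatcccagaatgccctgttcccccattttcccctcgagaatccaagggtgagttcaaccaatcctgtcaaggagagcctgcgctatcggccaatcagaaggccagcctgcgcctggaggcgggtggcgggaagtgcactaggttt
OR51E1 (chr11:4643732-4643981, plus strand): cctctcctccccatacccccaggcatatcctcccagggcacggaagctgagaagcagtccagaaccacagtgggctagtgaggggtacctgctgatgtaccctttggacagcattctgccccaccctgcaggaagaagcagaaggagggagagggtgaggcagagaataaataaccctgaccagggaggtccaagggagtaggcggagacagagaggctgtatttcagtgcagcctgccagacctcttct
FOS (chr14:75278578-75278827, plus strand): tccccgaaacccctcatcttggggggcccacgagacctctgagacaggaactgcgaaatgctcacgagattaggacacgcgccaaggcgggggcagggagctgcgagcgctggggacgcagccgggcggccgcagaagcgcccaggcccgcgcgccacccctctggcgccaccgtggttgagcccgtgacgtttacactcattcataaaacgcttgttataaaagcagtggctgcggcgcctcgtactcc

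The GINS2 window held the E2F-type motif on the reverse strand, 31 to 24 bases before the start. The SPC25 window held TTTGAA 247 to 242 bases before it. Both genes were picked among list members whose windows held TTTNNCGC or TTTGAA, so these motifs were present by choice. OR51E1 and FOS were picked without a condition on motifs. The windows of OR51E1 and FOS held neither. Among the 27305 promoters of the RefSeq table, 5.9% held TTTNNCGC and 13.6% TTTGAA. For the 44 of 53 DNA replication genes with a promoter in that table the shares were 34.1% and 0.0%, and for the 66 of 79 mitosis genes 13.6% and 45.5%. For the 49 of 54 replication-dependent histone genes they were 26.5% and 30.6%, and for the 26 of 31 hypoxia-inducible genes 3.8% and 0.0%. Among the 11643 of 16341 tested genes with a promoter the shares were 8.9% and 8.5%, which differ from those of the whole table. That is 71.3% of the genes tested, and 77.1% of those called lower, 60.5% of those called higher and 77.5% of the androgen response list could be matched, so no list is compared with those sets. The motifs are a description of letters and not of bound sites.

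Genes of the CDK4 pathway itself changed in both directions. Of 14 tested members 7 were lower and 2 higher by the adjusted p. CDKN2C, which encodes the CDK4 inhibitor p18, stood at 443, 373 and 446 with vehicle and 95.6, 114 and 125 with atirmociclib, a 3.76-fold fall (log2 fold change -1.91, SE 0.13, adjusted p = 1.89e-09), and was the 1 member called. CDKN1A, which encodes p21, had 2894, 3125 and 2810 with vehicle and 1536, 1485 and 1586 with atirmociclib (log2 fold change -0.94, adjusted p = 1.34e-10), and CDKN2A, the gene of p16, had a log2 fold change of -0.90. No library of either gene overlapped between the groups, as held for 50.1% of all genes tested. CDKN2A shares 15.3% of its exon bases with CDKN2B-AS1 on the other strand, which itself fell by 2.42. CCND1, the gene of cyclin D1, rose with 7840.5, 8064 and 7657 with vehicle and 10738, 10083 and 11298 with atirmociclib (log2 fold change 0.45), and RBL2, which encodes the retinoblastoma relative p130, rose by 0.50, while RBL1, which encodes p107, fell by 0.75. The transcript of the drug's target, CDK4, had a log2 fold change of -0.24 (adjusted p = 0.00578), with 44.2% of its exon bases shared with TSPAN31 on the other strand. RB1 had a log2 fold change of -0.12 and did not pass the test (adjusted p = 0.203).

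E2F factors, the next step of the pathway, mostly fell. Of 10 E2F and DP factors, 6 were lower and 1 was higher, with 4 called lower. E2F8, a repressor that is itself an E2F target, stood at 437, 435 and 487 with vehicle and 103, 78.8 and 78.3 with atirmociclib (log2 fold change -2.38, SE 0.24, adjusted p = 2.08e-07). The log2 fold change was -2.18 for its relative E2F7, -1.80 for E2F2 and -1.27 for E2F1, the last pair activators. In each of these the 3 atirmociclib libraries lay below the 3 vehicle libraries, beside 50.1% of all genes tested without overlap in either direction. E2F3 rose by 0.31.

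Genes of S phase entry fell almost as a whole, with 11 of 12 lower, 7 of them called, and a median log2 fold change of -1.05. CCNA2, the gene of cyclin A2, stood at 1458, 1539 and 1499 with vehicle and 459.9, 488 and 424 with atirmociclib (log2 fold change -1.71, SE 0.07, adjusted p = 5.39e-13). FBXO5, which encodes an inhibitor of the anaphase-promoting complex, fell by 1.76. The log2 fold change was -1.57 for the phosphatase gene CDC25A, -1.59 for the cyclin gene CCNE2, -1.34 for the licensing factor gene CDT1 and -1.01 for CDK2. CCNE2 shares 37.0% of its exon bases with INTS8 on the other strand, so part of its value cannot be assigned.

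DNA replication genes fell in most cases. Of 53 members 42 were lower and 1 was higher by the adjusted p, 13 were called lower, and the median was -0.76. CLSPN, which encodes the fork protein claspin, had 1431, 1527 and 1441 with vehicle and 389, 413 and 374 with atirmociclib, a 3.74-fold fall (log2 fold change -1.90, SE 0.10, adjusted p = 5.39e-11). PRIM1, a primase subunit, fell by 1.57, and CHAF1B, a subunit of the histone chaperone CAF-1, fell by 1.46. GINS2, a subunit of the replicative helicase whose promoter is printed above, had 513, 463 and 468 with vehicle and 192, 177 and 163 with atirmociclib (log2 fold change -1.44).

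Enzymes that supply deoxynucleotides fell in 12 of 14 cases, and 3 were called lower. RRM2, the small subunit of ribonucleotide reductase, had 4362, 3998 and 3624 with vehicle and 1098, 1109 and 820 with atirmociclib (log2 fold change -1.99, SE 0.13, adjusted p = 4.56e-10), the thymidylate synthase gene TYMS fell by 1.94 and the thymidine kinase gene TK1 fell by 1.11. SHMT1 was the 1 member that rose, by 0.25. Exons of TYMS overlap ENOSF1 on the other strand over 39.9% of their bases.

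Mitosis was the list with the most called members. Of 79 genes 74 were lower and 1 higher, 51 were called lower, and the median log2 fold change was -1.13. CDCA3, a trigger of mitotic entry, had 1122, 1215 and 1180.1 with vehicle and 319, 282 and 320.2 with atirmociclib (log2 fold change -1.93, SE 0.08, adjusted p = 8.01e-13). AURKB, the Aurora kinase of the chromosomal passenger complex, fell by 1.82, and the log2 fold change was -1.70 for the kinesin gene KIF20A and -1.65 for the kinetochore gene SPC25. TOP2A, topoisomerase II alpha, had 3293, 3710.2 and 3639 with vehicle and 1208, 1373 and 1355 with atirmociclib (log2 fold change -1.44), and CCNB1, cyclin B1, fell by 0.83 on the log2 scale. None of the named mitosis genes reached the floor of 3 normalised counts in a treated library.

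The proliferation regulators MYBL2 and FOXM1 and the antigen gene MKI67 were all called. MKI67, the gene of Ki-67, stood at 9672, 9199 and 9766 with vehicle and 3154, 2993 and 2991 with atirmociclib (log2 fold change -1.65, SE 0.06, adjusted p = 9.12e-14). MYBL2, the B-Myb factor that joins the MuvB core, fell by 1.71 and FOXM1, which acts with it in G2, fell by 1.38. Of the 9 genes of that list 4 were lower. Recombination and Fanconi genes were lower in 22 of 34 cases and higher in 3, with 7 called lower, among them the nuclease gene EXO1 (-1.54), the checkpoint kinase gene CHEK1 (-1.22) and the helicase gene BRIP1 (-1.08). Among 8 genes of DNA methylation, UHRF1, which recruits the maintenance methyltransferase, fell by 1.48 and DNMT1, that enzyme, fell by 0.88, whereas DNMT3A rose by 0.64 and TET1 by 0.36.

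Replication-dependent histone genes, whose transcripts are made in S phase, had the lowest median of the lists described. Of 66 listed genes 63 were in the table and 54 were tested, and 48 of these were lower, 47 of them called, with a median log2 fold change of -1.85. All 3 tested H1 genes, 14 of 15 H2A genes, 15 of 15 H2B genes, 9 of 11 H3 genes and 7 of 10 H4 genes were lower. Medians by class ran from -1.62 for H4 to -1.996 for H3. The linker histone gene H1-5 had 10804, 11189.5 and 11465 with vehicle and 2020.2, 1908 and 1928 with atirmociclib, a 5.71-fold fall with SE 0.05 on the log2 scale (adjusted p = 1.83e-16). H2AC16 had 3805, 3662 and 3820.3 with vehicle and 687, 664 and 650.4 with atirmociclib, and H2BC14 had a log2 fold change of -2.48 and H2BC6 of -2.45. H4C15 varied widely, with 7210, 2139 and 10877 with vehicle and 552, 2062 and 33.9 with atirmociclib (log2 fold change -4.01, SE 1.27), and lost its call without the third atirmociclib library, when its log2 fold change was -2.37, or without the first or the third vehicle library (-3.82 and -3.52). H4C15 and H4C14 share 1547 identical bases in their transcripts, so their values cannot be told apart. H4C14 had 5397, 12680.3 and 2256 with vehicle and 2518, 1306 and 3280.3 with atirmociclib (log2 fold change -1.28, SE 1.15, adjusted p = 0.408) and did not pass the test. Of 11 histone variant genes 9 were lower, led by H2AX (-1.65) and the centromeric CENPA (-1.43).

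**Figure D2:**
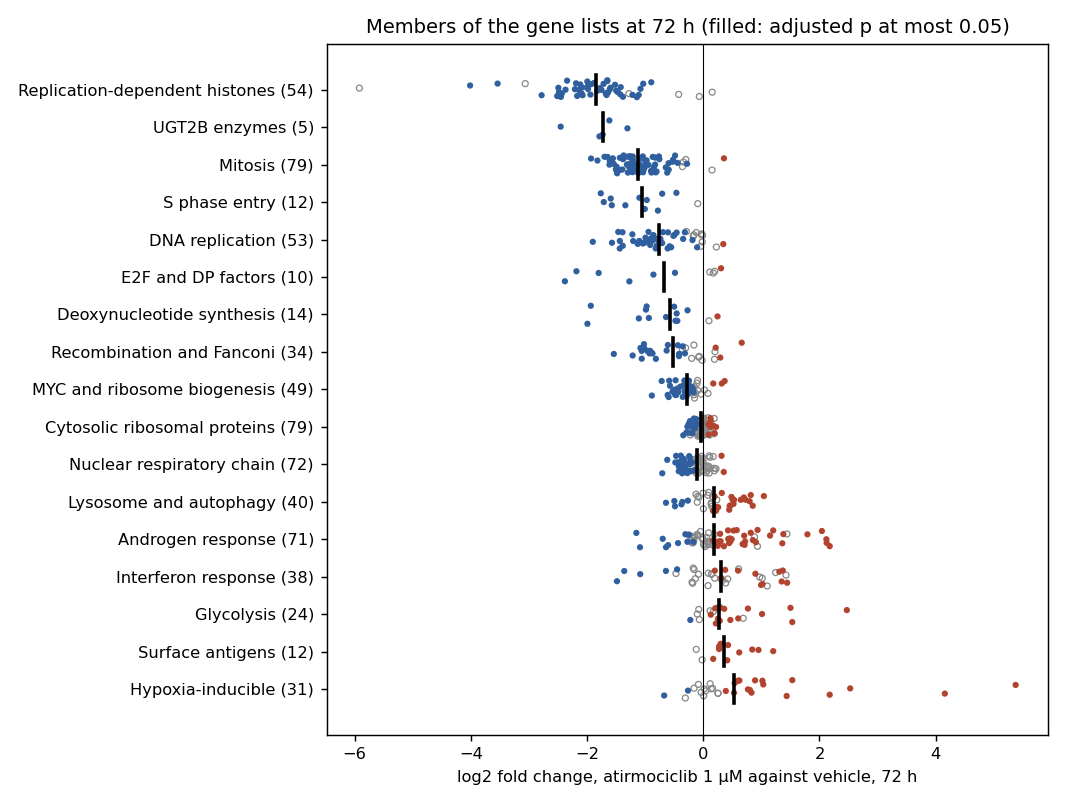
Each point is a gene placed by its log2 fold change with atirmociclib 1 µM against vehicle at 72 h, in rows by list with the number tested in brackets, filled at an adjusted p of at most 0.05, with a black bar at the median. Histone, mitosis and S phase entry genes lie mostly at negative values, ribosomal protein genes lie near 0, and the hypoxia-inducible list reaches from -0.67 to 5.38.

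Androgen response genes were more often higher than lower. Of 71 members 34 were higher and 10 lower, 9 were called higher and 2 lower, and the median was 0.19. Over all genes tested 20% were higher and 19.8% lower, and 4.06% were called higher and 2.67% lower. KLK3 stood at 20972, 20799 and 19802 with vehicle and 51497, 53405 and 55194 with atirmociclib (log2 fold change 1.38, SE 0.05, adjusted p = 8.91e-14). TMPRSS2, the androgen-driven serine protease gene, had 5129, 4504 and 4205 with vehicle and 19815, 19897 and 20397 with atirmociclib, a 4.36-fold rise. Every treated library of both lay above every vehicle library, and the groups did not overlap for 50.1% of all genes tested. The kallikrein gene KLK2 rose by 1.20, the ion channel gene TRPM8 by 2.04, the transcription factor gene MAF by 2.12 and NDRG1, which hypoxia also induces, by 2.18. The desaturase gene FADS1 fell by 1.15. TMPRSS2 shares 8.5% of its exon bases with MX1 on the other strand.

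Of 7 listed UGT2B genes, whose enzymes glucuronidate androgens and other substrates, 5 were tested and all 5 were called lower. UGT2B11 had 1078, 1172 and 1041 with vehicle and 170.2, 209 and 222 with atirmociclib (log2 fold change -2.45, SE 0.12, adjusted p = 1.24e-11), UGT2B15 2886, 3308 and 3168 with vehicle and 1031, 1058 and 959.6 with atirmociclib, and UGT2B17 fell by 1.31. UGT2B15 and UGT2B17 share a stretch of 551 bases at 99.3% identity, so the division of reads between them is uncertain. Of 12 surface antigen genes 10 were higher, including FOLH1, which encodes PSMA (0.41), and ERBB2 (3758, 3842 and 3925 with vehicle and 7104, 6694 and 6884 with atirmociclib, log2 fold change 0.84).

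Several of the genes with the largest rises at a mean of at least 50 had low levels in vehicle. OR51E1 (chromosome 11, 4643420 to 4655488, plus strand, GENCODE release 44 on GRCh38), a prostate-enriched olfactory receptor gene, had 4.79, 6.75 and 4.58 with vehicle and 289, 247 and 267 with atirmociclib, a 42.5-fold rise (log2 fold change 5.41, SE 0.21, adjusted p = 3.89e-13). PLOD2 (chromosome 3, 146035139 to 146163725, minus strand), a lysyl hydroxylase gene of collagen, had 2.08, 4.28 and 3.52 with vehicle and 125, 159.5 and 260.1 with atirmociclib. The angiopoietin gene ANGPT2 had 10.7, 7.54 and 14.7 with vehicle and 179, 215 and 312 with atirmociclib, with 9.7% of its exon bases shared with MCPH1 on the other strand. None of these overlapped between groups, which was a condition for naming the 15 highest genes. VSTM2L rose by 3.52, the matrix metalloproteinase gene MMP7 by 3.20, the relaxin gene RLN1 by 2.68 with 105, 94.9 and 97.3 with vehicle and 573, 685 and 663 with atirmociclib, the splicing regulator gene MBNL2 by 2.64, the deiodinase gene DIO1 by 2.59, RIPOR2 by 2.46, LRRC7 by 2.48 and the long non-coding RNA PCSEAT by 2.40. POTEM rose by 2.75 and PCDH11Y by 3.16, but POTEM shares 2204 bases at 99.6% identity with POTEG, and PCDH11Y 5200 bases at 98.3% with PCDH11X. LRRC7 shares shorter near-identical stretches with many other genes, such as 305 bases at 99.3% with P4HA2.

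Hypoxia-inducible genes, a set that low oxygen raises through HIF factors, were higher in 17 of 31 cases and lower in 2, with 8 called higher and a median of 0.53. NDUFA4L2, which encodes a mitochondrial protein induced by HIF-1, had 34.9, 26.98 and 25.9 with vehicle and 379, 449 and 896 with atirmociclib, a 17.8-fold rise (SE 0.36 on the log2 scale, adjusted p = 3.60e-08). PPFIA4, a liprin gene, had 78.96, 23.4 and 85.8 with vehicle and 211, 337 and 453 with atirmociclib, and the third treated library was the highest for PLOD2, NDUFA4L2 and PPFIA4 alike. Of 24 glycolysis genes 14 were higher and 1 lower, with the aldolase gene ALDOC at 674, 667 and 713 with vehicle and 1756, 1893 and 2191 with atirmociclib (log2 fold change 1.50), PFKFB4 higher by 1.53, the enolase gene ENO2 by 1.01 and the pyruvate dehydrogenase kinase gene PDK1 by 0.77.

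At the same mean, the largest falls outside the cell cycle lists were those of FOS, DHRS2 and ID1. FOS (chromosome 14, 75278826 to 75282230, plus strand), an immediate early gene and AP-1 subunit, had 182, 289 and 235 with vehicle and 15.1, 6.505 and 15.1 with atirmociclib, an 18.6-fold fall (log2 fold change -4.22, SE 0.50, adjusted p = 1.84e-06). DHRS2 (chromosome 14, 23630115 to 23645639, plus strand), a short-chain dehydrogenase gene, had 224, 243 and 206 with vehicle and 18.4, 27.6 and 25.6 with atirmociclib. ID1 (chromosome 20, 31605283 to 31606515, plus strand), an inhibitor of helix-loop-helix factors that BMP signalling induces, had 504, 540.1 and 529.5 with vehicle and 61.6, 75.8 and 87.3 with atirmociclib, and its relatives ID3 and ID2 had log2 fold changes of -2.05 and -1.87. The long non-coding RNA CDKN2B-AS1 fell by 2.42. FOS was the 1 called fall among 27 immediate early genes tested, beside 2.67% of all genes tested called lower. Of these 27 genes 6 were lower and 5 higher, near the 19.8% and 20% of all genes tested. FOSL2, another AP-1 subunit gene, rose by 1.18.

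**Figure D3:**
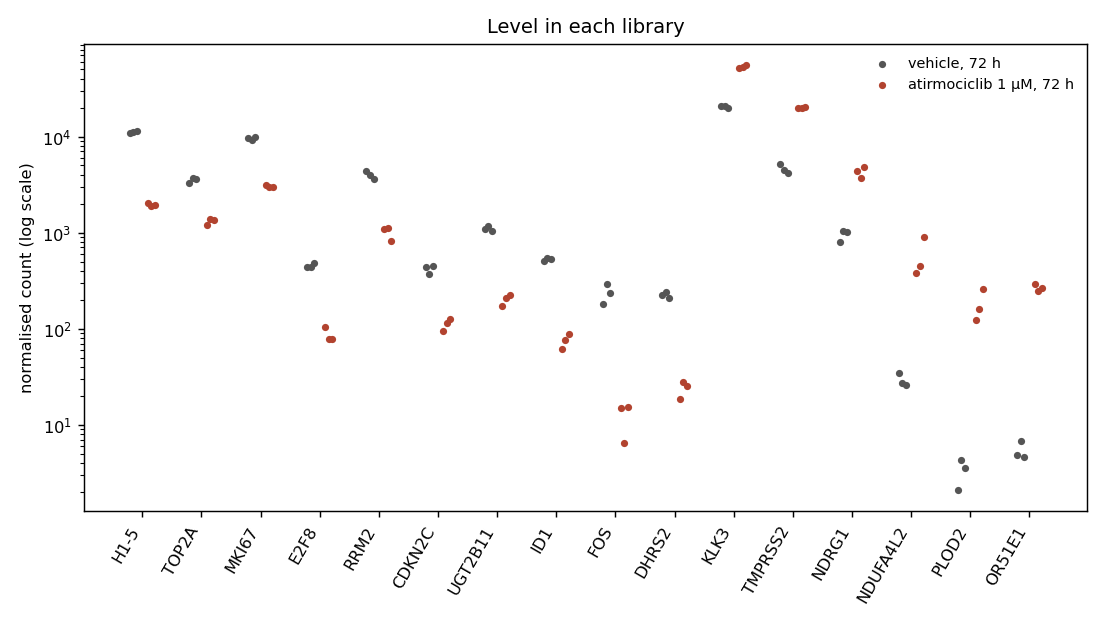
Normalised counts on a log axis for 16 genes, with the 3 vehicle libraries in grey and the 3 atirmociclib 1 µM libraries in red, 1 point a library. No gene shown had overlapping groups, as held for 50.1% of all genes tested. The genes run from H1-5 and FOS, which were lower, to PLOD2 and OR51E1, which were higher.

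Genes of ribosome biogenesis and of the nuclear-encoded respiratory chain were lower more often than higher. Ribosome biogenesis and MYC-responsive genes were lower in 35 of 49 cases and higher in 3, with a median of -0.29. The processome gene UTP20 fell by 0.89 and the fibrillarin gene FBL fell by 0.61, while MYC itself had 8204, 8299 and 8758 with vehicle and 10723, 10371 and 11520 with atirmociclib and rose by 0.37. Cytosolic ribosomal protein genes had a median of -0.04, with 17 of 79 lower and 8 higher, beside 19.8% of all genes tested lower and 20% higher, so the count of lower genes was near that of all genes. That count depended on the fit: 9 to 11 were lower without the first vehicle library or without the first or second atirmociclib library, and 26 under quantile normalisation. Without the third atirmociclib library 4 were higher. Of 72 nuclear genes of the respiratory chain 31 were lower and 2 higher, with the cytochrome c gene CYCS at a log2 fold change of -0.71. Of the 13 genes encoded in mitochondrial DNA 9 were higher, with a median of 0.22, but under quantile normalisation the median was -0.02 and 1 gene was higher. Their share of each library's total was 7.754% to 8.169% with atirmociclib and 6.759% to 7.419% with vehicle.

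Genes of cholesterol synthesis were lower in 12 of 24 cases and higher in 4, with log2 fold changes of -0.80 for the isomerase gene EBP, -0.76 for ACAT2 and 0.79 for the reductase gene TM7SF2. Lysosome and autophagy genes went the other way, with 21 of 40 higher and 6 lower. The prosaposin gene PSAP had 7134, 7452 and 8124 with vehicle and 13321, 13864 and 13729 with atirmociclib (log2 fold change 0.85), the kinase gene ULK1 rose by 0.80, the sialidase gene NEU1 by 0.82 and GABARAPL1, an autophagosome gene, by 1.04.

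Stress pathways split by gene. Of 32 ATF4 and unfolded protein response genes 13 were lower and 12 higher, and 6 were called lower. ASNS, asparagine synthetase, had 2609.6, 2495 and 2379.5 with vehicle and 792, 752 and 699 with atirmociclib (log2 fold change -1.74, SE 0.16, adjusted p = 5.02e-08). The amino acid transporter genes SLC7A5 and SLC7A11 had log2 fold changes of -1.54 and -1.45, and the glutathione-degrading enzyme gene CHAC1 fell by 1.86. PSAT1 and PHGDH, of serine synthesis, completed the 6 called and were named after their values were seen. A long non-coding gene on the same strand overlaps 49.3% of the exon bases of ASNS.

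Among 30 p53 targets 14 were lower and 6 higher, beside 19.8% and 20% of all genes tested. DDB2, a damage recognition gene, fell by 1.25 and PMAIP1, which encodes the BCL2 antagonist NOXA, fell by 1.32, while the kinase gene PLK2 rose by 1.23. Of 11 tested senescence-associated genes 6 were lower and 3 higher. HMGB2, a chromatin protein gene lost in senescent cells, had 2994, 3144 and 3085 with vehicle and 892, 859 and 875 with atirmociclib (log2 fold change -1.81), and LMNB1, which encodes lamin B1, fell by 1.46. GDF15, a stress-induced cytokine gene, rose by 1.65 with 3987, 4033 and 4198 with vehicle and 12158, 11364 and 15185 with atirmociclib, and IGFBP3 fell by 1.88. Of 26 genes written for that list 25 were in the table, and 14 of those did not pass the filter on low values.

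Interferon response genes were higher in 11 of 38 cases and lower in 5, with a median of 0.31, beside 20% of all genes tested higher and 19.8% lower. The exonuclease gene ISG20 rose by 1.44 and IFIT2 by 1.35, and OAS3, an oligoadenylate synthetase gene, fell by 1.49 with 620, 678 and 600.2 with vehicle and 258, 211 and 209 with atirmociclib. Without the first vehicle library 2 members were lower, and 3 without the second vehicle or the third atirmociclib library. Of 13 antigen presentation genes 7 were higher, HLA-E by 0.39, and the peptide transporter gene TAP2 fell by 0.79. Of 7 neuroendocrine genes tested, 4 were called higher, beside 4.06% of all genes tested. They included the tubulin gene TUBB3 with 284, 284 and 297 with vehicle and 640, 682 and 678 with atirmociclib. The synaptotagmin gene SYT4 (1.10) and ENO2 (1.01), described above with glycolysis, were called too. SYP did not pass the test (log2 fold change -0.23, adjusted p = 0.62), and EZH2, a polycomb enzyme gene placed in that list, fell by 1.18. SYT1, another of the 4, had 0, 0.791 and 0 with vehicle and 9.098, 15.2 and 1.91 with atirmociclib (adjusted p = 0.0478), and lost its call without the first atirmociclib library or without any 1 of the vehicle libraries, with log2 fold changes of 2.50, 2.54, 2.96 and 2.54, and with the replicate block (adjusted p = 0.0609). The list had 21 genes, most of which did not pass the filter on low values, so that count is not one over all members. Of 18 xenobiotic genes tested 5 were lower and 5 higher, beside 19.8% and 20% of all genes tested. The quinone reductase gene NQO1 had a log2 fold change of -1.30.

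Some markers of other cell types rose with treatment, and their part in the results was not tested. VWF, an endothelial gene, had 213, 184 and 252 with vehicle and 713, 694 and 658 with atirmociclib (log2 fold change 1.67, adjusted p = 1.13e-06). The summed level of 5 endothelial markers, nearly all of it VWF, was 185 to 253 with vehicle and 663 to 713 with atirmociclib. PECAM1 did not pass 4.34 in any library. The basal keratin gene KRT14 had 22.9, 25.2 and 4.73 with vehicle and 88.6, 78.7 and 42.4 with atirmociclib. The 6 basal markers, mostly KRT14, summed to 6.11 to 29.2 with vehicle and 43.9 to 90.7 with atirmociclib, and TP63 did not pass 0.608. The 7 leukocyte markers summed to 45.3 to 92.2 and 120 to 141, nearly all of it CD68, and the 7 fibroblast markers to 521 to 661 and 621 to 700, mostly COL1A1.

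Whether the change at 72 h differed from that at 24 h was tested as the difference between both effects in a fit of all 36 libraries. Of 16850 genes tested, 628 (3.73%) had a change called higher at 72 h than at 24 h and 92 (0.546%) a change called lower. By the adjusted p alone the counts were 1906 (11.3%) and 1780 (10.6%). Seeding density and time in culture differed along with treatment time, so these cannot be told apart.

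The fall of cell cycle genes was smaller at 72 h. For mitosis genes the median log2 fold change was -2.23 at 24 h and -1.13 at 72 h, and 72 of 79 had a higher change at 72 h by the adjusted p. For DNA replication genes the medians were -1.29 and -0.76, with 32 of 53 higher and 2 lower, and for replication-dependent histones -2.76 and -1.85, with 36 of 54 higher. KIF20A, the kinesin gene, fell from 1641, 1735 and 1584 with vehicle to 64.8, 86.5 and 78.8 with atirmociclib at 24 h, against 1557, 1879 and 1621 with vehicle and 560.3, 538 and 457 with atirmociclib at 72 h (difference 2.72, SE 0.25, adjusted p = 1.30e-09). MKI67 had a log2 fold change of -3.80 at 24 h and -1.65 at 72 h (adjusted p = 1.10e-15). For UGT2B genes 4 of 5 had a higher change at 72 h, with medians of -3.09 and -1.73.

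Growth lists moved the other way. Ribosomal protein genes had a median of 0.33 at 24 h and -0.04 at 72 h, and the change was lower at 72 h for 71 of 79. The change was also lower for 26 of 49 ribosome biogenesis genes, 42 of 72 nuclear respiratory chain genes and 17 of 24 cholesterol synthesis genes, the last with medians of 0.30 and -0.13. Hypoxia-inducible genes had a median of 0.53 at 24 h and 0.53 at 72 h, and 2 of 31 differed between the times. NDRG1 rose by 2.11 at 24 h and 2.18 at 72 h. Among 71 androgen response genes 21 had a lower change at 72 h and 12 a higher one. Their medians were 0.29 at 24 h and 0.19 at 72 h. The rise of KLK3 was larger at 72 h (0.45 and 1.38, adjusted p = 6.20e-11), as was that of TMPRSS2 (1.34 and 2.12, adjusted p = 9.60e-07).

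**Figure D4:**
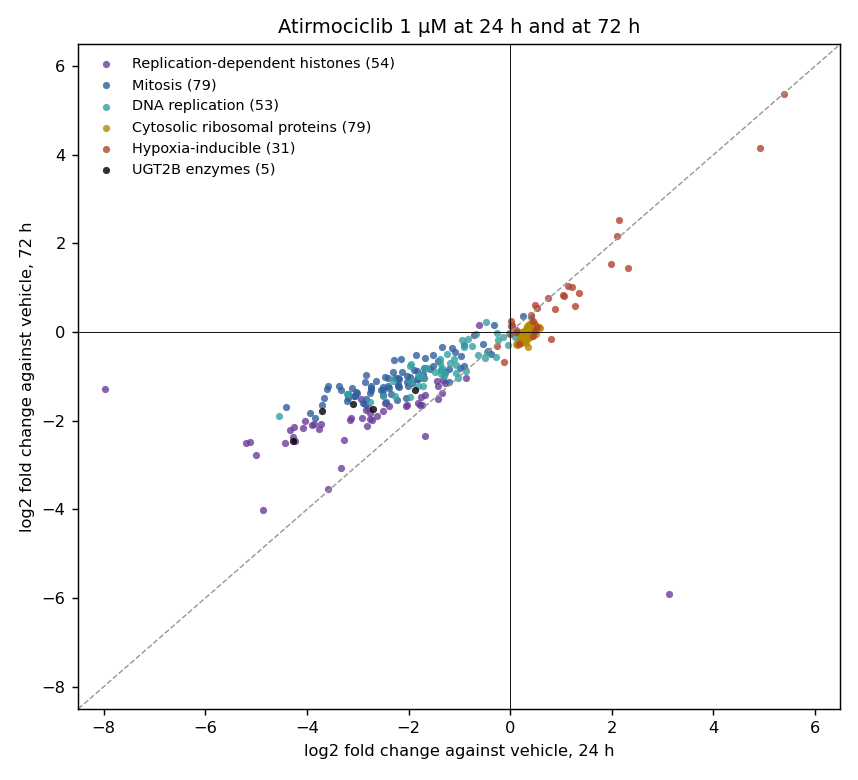
Each point is a gene of 1 of 6 lists, with its log2 fold change with atirmociclib 1 µM against vehicle at 24 h on the horizontal axis and at 72 h on the vertical axis, and the dashed line marks equal change. Mitosis and DNA replication genes lie mostly above the line at negative values, ribosomal protein genes lie below it, and hypoxia-inducible genes lie near it.

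FOS turned direction between the times. At 24 h it had 24.1, 7.02 and 15.1 with vehicle and 129.8, 59.8 and 71.5 with atirmociclib, a log2 fold change of 2.49, against -4.22 at 72 h (difference -6.71, SE 0.995, adjusted p = 7.60e-06). The vehicle level itself was higher at 72 h, 182, 289 and 235, than at 24 h, and did not overlap it. ID1 had 560.2, 591 and 685 with vehicle and 607, 643 and 684 with atirmociclib at 24 h, so its fall was present at 72 h with no change past the test at 24 h (difference -2.88, adjusted p = 1.14e-07).

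AU2-94 at the same dose and time gave a smaller fall of cell cycle genes. Both changes against vehicle use the same vehicle libraries, and the tests given here compare the 2 agents directly. With atirmociclib, 21 of 16341 genes (0.129%) were called higher and 73 (0.447%) lower than with AU2-94, and by the adjusted p alone 741 (4.53%) were higher and 605 (3.7%) lower. Without the second atirmociclib library 8 were called higher. Of 79 mitosis genes 58 were lower with atirmociclib and 1 higher, and the median change against vehicle was -0.56 with AU2-94 and -1.13 with atirmociclib. Replication-dependent histones were lower in 41 of 54 cases and higher in 1, with medians against vehicle of -1.001 and -1.85, and DNA replication genes were lower in 22 of 53. H1-5 had 4672, 4691 and 4931 with AU2-94, between the 10804, 11189.5 and 11465 of vehicle and the 2020.2, 1908 and 1928 of atirmociclib (difference -1.29, SE 0.05, adjusted p = 2.74e-11). DHRS2 had 71.7, 83.2 and 61.02 with AU2-94 (difference -1.56, adjusted p = 2.00e-04). KIF20A had 1146, 1109 and 1173 (difference -1.14, adjusted p = 1.87e-07).

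Single genes separated the compounds in both directions. CYP1A1, the cytochrome induced by the aryl hydrocarbon receptor, had 6.24, 13.2 and 9.698 with vehicle, 117, 126 and 137 with AU2-94 and 30.6, 39.2 and 37.2 with atirmociclib (difference -1.81, adjusted p = 0.00388). THBS1, which encodes the matrix protein thrombospondin-1, had 151, 182 and 246 with AU2-94 and 40.7, 56.4 and 44.7 with atirmociclib, on either side of the 61.00, 86.97 and 119.9 of vehicle. FOXN4, a forkhead gene, likewise had 90.9, 104 and 101 with AU2-94 and 30.1, 17.4 and 15.3 with atirmociclib, against 58.2, 48.3 and 67.2 with vehicle. P3H2, a prolyl hydroxylase gene, was higher with atirmociclib by 1.54 (adjusted p = 0.009), VWDE by 1.51 and ARHGAP42 by 1.30. MYOD1, the myogenic factor gene, was listed at 0 in the 3 vehicle libraries, at 65.7, 41.1 and 75.1 with atirmociclib and at 145, 157 and 206 with AU2-94, so no fold change against vehicle is given.

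For OR51E1, ID1, TRPM8 and UGT2B15 no difference between the compounds passed the test, and the intervals show how large one could be. OR51E1 had a difference of -0.28 (95% interval -0.72 to 0.16), ID1 of 0.13 (-0.50 to 0.75), TRPM8 of 0.02 (-0.26 to 0.30) and UGT2B15 of 0.05 (-0.12 to 0.21). Of 31 hypoxia-inducible genes 3 were lower with atirmociclib. TMPRSS2 was higher with atirmociclib by 0.51 (adjusted p = 6.73e-05).

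A dose of 2 µM differed from 1 µM at 72 h for few genes, with 5 (0.0306%) called higher and 10 (0.0612%) lower, and 205 (1.25%) higher and 153 (0.936%) lower by the adjusted p alone. Of 54 replication-dependent histone genes 30 were lower at 2 µM, and of 79 mitosis genes 14 were lower. H1-5 had 1224, 1318 and 1420.1 at 2 µM and 2020.2, 1908 and 1928 at 1 µM (difference -0.57, SE 0.05, adjusted p = 2.97e-05). The ID genes were higher at 2 µM than at 1 µM. ID1 had 424, 196 and 186 at 2 µM, above the 61.6, 75.8 and 87.3 at 1 µM and below vehicle (difference 1.74, adjusted p = 0.00453), ID3 differed by 1.30 and ID2 by 1.12. The first 2 µM library was the highest of its group for ID1 and ID3, and without it 2 genes were called higher and 2 lower. None of the 10 genes called lower with all libraries kept that call without it, or without the first 1 µM library. Leaving out each of the 6 libraries of the comparison in turn gave 2 to 11 called higher and 1 to 20 lower. TTN, the gene of titin, had 936, 355 and 1256 at 2 µM and 159.8, 137 and 236 at 1 µM (difference 2.10, adjusted p = 0.0285), and VASH1, which encodes an angiogenesis inhibitor, had 57.9, 49.04 and 59.2 and 138, 90.3 and 138 (difference -1.10). KLK3 differed by -0.05 (95% interval -0.14 to 0.05) and MKI67 by -0.34 (adjusted p = 0.00329).

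**Figure D5:**
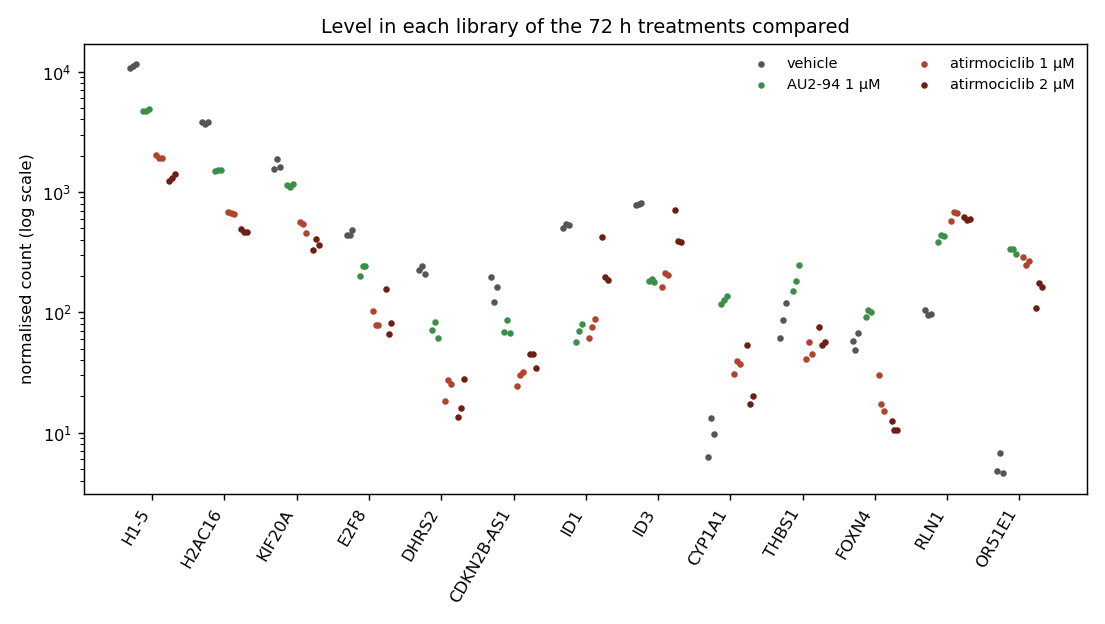
Normalised counts on a log axis for 13 genes at 72 h, with 3 libraries each of vehicle (grey), AU2-94 1 µM (green), atirmociclib 1 µM (red) and atirmociclib 2 µM (dark red), 1 point a library. H1-5 and H2AC16 step down from vehicle through AU2-94 to atirmociclib 1 µM and 2 µM, CYP1A1 is highest with AU2-94, and ID1 and ID3 lie higher at 2 µM than at 1 µM of atirmociclib.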

How the data were processed

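RNA sequencing of LNCaP cells was taken from 6 of 36 libraries, 3 per group, and the other libraries entered only the fits and the further comparisons. The authors processed the reads with an nf-core pipeline and aligned them with STAR 2.6.1d to GRCh38. The read counter, annotation and strand setting are not given in the sources used here. They deposited normalised counts for 29872 genes, a signal that is not whole: 19.15% to 50.22% of the low values of a library (under 20) were whole multiples of 1 step within 0.02 of a step, so no model for counts was used. Low values are the least precise, and a gene whose libraries in a group all held 3 normalised counts or fewer was treated as at the floor.

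Genes with at least 10 normalised counts in at least 3 libraries were tested as log2(value + 1) in limma 3.58.1 (R 4.3.3, empirical Bayes with trend), with the 18 libraries of 72 h in 1 fit, or all 36 for the difference between times, and Benjamini-Hochberg adjustment per contrast. Named genes were the 15 highest and 15 lowest called genes with a mean of at least 50 and groups that did not overlap, the 4 list members with the largest change (all members of lists with at most 15 measured), genes that the study names, the 4 extreme genes each way of the other contrasts, and markers. Members and lists were chosen with earlier results of these data known. Lists were described by counts and medians. Positions and exon overlaps came from GENCODE release 44 and near-identical transcripts (at least 100 bases at 98%) from BLAST 2.17.0. A symbol was paired with 22060 of the table's genes, and promoters were matched by symbol, using the first entry. On simulated data of 15761 genes 99.5% of 200 planted changes of 1.5 (log2) were recovered. That size is above the call threshold, so recovery of changes nearer 2-fold was not measured. Replicate numbers stand under a batch tag in the labels. The fits had no replicate term, and a block by number was an alternative. Deviations from the group means correlated at -0.043 to 0.003 for the same number and -0.039 to 0.052 for different numbers. Alternatives covered the pseudocount, filters, scaling, the replicate block, the libraries fitted, the trend and leaving out each library. Results for some genes are not reported here.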

Additional observations from a re-analysis of the deposited data

Results flagged for a closer look

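The change with atirmociclib 1 µM differed between the times in a test of the difference itself, and each value here is the log2 change at 72 h minus that at 24 h. It was called higher at 72 h for 628 genes and lower for 92. Falls that were smaller at 72 h included that of the kinesin gene KIF20A (difference 2.72, SE 0.25). ABCA1, a cholesterol efflux gene, had 145, 45.1 and 122 with vehicle and 10.8, 26.7 and 23.01 with atirmociclib at 24 h, and 36.6, 27.5 and 35.1 with vehicle and 56.99, 67.1 and 67.2 with atirmociclib at 72 h (difference 3.17, adjusted p = 1.49e-05). It was lower with treatment at 24 h and higher at 72 h, and its vehicle level was itself lower at 72 h. INAVA had 93.9, 71.6 and 89.4 with vehicle and 27.8, 23.5 and 84.5 with atirmociclib at 24 h, against 29.5, 24.1 and 31.2 with vehicle and 60.3, 119 and 126 with atirmociclib at 72 h (difference 2.87). CYP3A5, a cytochrome of drug and steroid metabolism, had a log2 fold change of -0.73 at 24 h and 1.96 at 72 h (difference 2.70).

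Changes that were lower at 72 h were led by FOS (difference -6.71) and ID1 (difference -2.88). IGF1, the growth factor gene, had 69.5, 48.5 and 49.7 with vehicle and 96.1, 97.9 and 130 with atirmociclib at 24 h, and 48.1, 106 and 92.3 with vehicle and 20.2, 18.3 and 31.3 with atirmociclib at 72 h (difference -2.68, adjusted p = 9.36e-04). Its exons share 82.5% of their bases with HELLPAR on the other strand. IGFBP3, which encodes a binding protein of that factor, had 142, 182 and 190.1 with vehicle and 173, 166 and 211 with atirmociclib at 24 h, against 207, 259 and 203 with vehicle and 59.1, 50.8 and 70.96 with atirmociclib at 72 h (difference -1.98, adjusted p = 2.63e-07). Groups of 3 libraries were too small for a test of single outlying libraries.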

How the results depend on the processing

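The counts of 664 genes called higher and 437 lower were 429 higher with a pseudocount of 8, and 235 and 267 with a mean of at least 100. The replicate block, which pairs libraries by number, gave 664 and 434 and moved no other count by over 1.5 times. Leaving out 1 library at a time gave 596 to 676 higher and 399 to 437 lower. Genes called lower were 39.7% of all calls, 49.1% under quantile normalisation and 53.2% with a mean of at least 100.

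For the difference between 72 h and 24 h, a mean of at least 100 gave 341 higher and 27 lower, quantile normalisation 170 lower, and leaving out 1 library 568 to 639 higher and 68 to 98 lower. Against AU2-94, a mean of at least 100 gave 5 higher and 39 lower, and leaving out 1 library 8 to 22 higher, the lowest without the second atirmociclib 1 µM library, and 54 to 61 lower. For 2 µM against 1 µM, the counts were 13 higher with no filter, 2 lower with a mean of at least 100, 4 lower under quantile normalisation, 8 higher and 6 lower with only these groups fitted, and 5 lower with no trend. Leaving out 1 library gave 2 to 11 higher and 1 to 20 lower there: without the first or second 2 µM library 2 and 11 were higher and 2 and 20 lower, without 1 µM library 2 or 3 the counts were 8 and 3 higher, and without 1 µM library 1 or 3 they were 1 and 4 lower. Without the first library of either dose, none of the genes called lower were those called with all libraries. The cause of these differences was not tested.

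Under quantile normalisation, mitochondrially encoded genes turned from higher to a median of -0.0152, with MT-ATP6 at -0.0366, MT-CO1 at 0, MT-CO2 at -0.0634, MT-CO3 at -0.0322, MT-CYB at -0.0152, MT-ND2 at -0.00639, MT-ND4 at -0.0482 and MT-ND5 at -0.0365. With no filter on low values the senescence-associated median was 0 and that of leukocyte markers -0.22, since more genes were included. Of the recomputed values of named genes 4629 kept their direction and side of the threshold, 145 lost and 19 gained the threshold and 8 turned. Low values limit what can be seen: 35 genes called higher had at most 3 normalised counts in every vehicle library, and 10 called lower in every treated one.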

Other observations

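Extracellular matrix and adhesion genes were mostly higher where they changed. Of 27 tested 11 were higher and 3 lower, beside 20% and 19.8% of all genes tested. Calls were 6 higher and 1 lower, beside 4.06% and 2.67% of all genes tested. COL6A1, a collagen VI chain gene, had 3193, 3080.1 and 3422 with vehicle and 6607, 6379 and 6694 with atirmociclib (log2 fold change 1.02, SE 0.05, adjusted p = 2.08e-11), and TWIST1, a mesenchymal transcription factor gene, had 48.3, 52.2 and 49.2 with vehicle and 87.1, 111 and 109 with atirmociclib (log2 fold change 1.01). With only the 6 libraries of these groups fitted, 6 were higher. Of 15 fatty acid synthesis genes 6 were lower and 5 higher, beside 19.8% and 20% of all genes tested. THRSP, which encodes a regulator of lipogenesis, had 10.5, 17.6 and 11.7 with vehicle and 74.2, 65.5 and 61.1 with atirmociclib (log2 fold change 2.28), ELOVL6, an elongase gene, fell by 0.66, and the fatty acid synthase gene FASN had a log2 fold change of -0.19.

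Of 21 genes of transcription elongation 5 were lower and 6 higher, near the 19.8% and 20% of all genes tested, with HEXIM1, the inhibitor of P-TEFb, at -0.52 and CDK7 at 0.47. Of 14 BCL2 family genes tested 3 were lower and 4 higher, also near those shares. BOK, a pro-apoptotic member, rose by 0.82, BMF by 0.56 and BAX fell by 0.45. BCL2 itself had 165, 158 and 179 with vehicle and 126, 76.4 and 58.6 with atirmociclib (log2 fold change -1.005, adjusted p = 0.0211) and lost its call without atirmociclib library 2 or 3 or vehicle library 3, when its log2 fold change was -0.95, -0.76 and -0.96.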
